A study of Mus musculus with 12 samples.

Results

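The wells described here were basal keratinocytes of mouse back skin epidermis that passed a gate on 6 genes, and they numbered 585 of 1906 kept wells. Each well received 1 sorted cell, and the ribosome footprints in it were counted per gene. A well was kept at 100 counts or more. It was basal if Krt1, Krt10, Krt5 and Krt14 together had at least 5 counts and Krt1 and Krt10 made up less than 10% of them. It was gated if Igfbp3, Smoc2, Il1r2, Slco2a1, Thbs2 and Fcgbp together had at least 3 counts and at least 0.3% of its total. Wells were left out if 9 immediate early genes reached 2% of counts, 3 upper hair follicle genes reached 1%, or 5 outer bulge genes reached 0.5%. These exclusions removed 233 of 995 basal wells, 105 of which met the gate, and the remaining 762 basal wells were 585 gated and 177 other basal wells.

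Female C57Bl/6 mice of 2 ages were used, young at 56 to 60 days and old at 22 to 26 months, and all were injected with cycloheximide, which stalls ribosomes, before death. They are called P57, P59 and P60 (young) and P662, P722 and P758 (old) after their postnatal days, with 10 plates in all. Plates that share an age and a day were assumed to come from 1 animal. A plate used to compare nucleases (P758) and a plate of Sca-1-negative cells of mixed age stayed outside every test. Footprint counts depend both on how much of an mRNA a cell holds and on how it is translated, and mRNA itself was not analysed here.

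Basal keratinocytes sit on the basement membrane, to which they are fixed by hemidesmosomes, and they divide to renew the layers above. The gate joins secreted and membrane proteins of different kinds. Igfbp3 binds insulin-like growth factors, and Il1r2 is a decoy receptor that takes up interleukin-1 without signalling. Smoc2 and Thbs2 are matricellular proteins, Slco2a1 is a prostaglandin transporter, and Fcgbp encodes a large secreted protein with von Willebrand factor D domains, best known from mucus.

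The members came very unevenly from the animals. P60 gave 438 and P758 128, while P722 gave 9, P59 and P662 gave 4 each and P57 gave 2. The summed counts of the gated wells were 1356724 in P60 and 221188 in P758, but 4413 in P722, 1414 in P662, 1157 in P59 and 958 in P57. A count is therefore worth 864 CPM (counts-per-million) in P59 and 0.737 CPM in P60. Gated wells had a median of 1488 counts and other basal wells of 619, and a rule that asks for at least 3 counts is met more easily in a deep well. The plates shared 383 of 384 well barcodes, which are indices of plate positions, and no pair of wells held identical counts.

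The label of these wells, which names Igfbp3, Smoc2 and Il1r2, was not borne out by the counts. Fcgbp supplied 77.5% of the members' gate counts and 75% in the median member, and it was counted in 574 of 585 wells. By Fcgbp alone 501 members (85.6%) passed both thresholds, whereas 255 (43.6%) passed without it and 154 passed on the 3 genes of the label. No count of Igfbp3, Smoc2 or Il1r2 was found in 130 members (22.2%), and in 67 Fcgbp was the only gate gene counted. All 6 gate genes were counted together in 58 members. The wells are therefore called gated basal wells below, and their gate is described as led by Fcgbp in counts. Those counts were not adjusted for coding length, so they do not show that Fcgbp was translated more than the other gate genes.

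The members were selected on the levels of these genes, so the following values are a description. Fcgbp (chromosome 7, 28071236 to 28120864, build GRCm38.p6) had 7307 CPM in P57, 10372 in P59, 14455 in P60, 16266 in P662, 9064 in P722 and 11307 in P758. The lowest and the highest level lay in animals with 2 and 4 gated wells, and young and old animals overlapped. Igfbp3 (chromosome 11, 7206086 to 7215498) had 1746 CPM in P60, 972 in P758 and 3399 in P722, rested on 1 count in P59 and had 0 counts in P57 and P662. Smoc2 (chromosome 17, 14279490 to 14404790) had 997 CPM in P60, 565 in P758 and 1360 in P722. Il1r2 (chromosome 1, 40084692 to 40125230) had 399 CPM in P60, 470 in P758 and 2266 in P722, the last from 10 counts. Slco2a1 had 582 CPM in P60 and 524 in P758, and Thbs2 had 490 and 556. The chemokine Cxcl14, a marker that came with the gate, was counted in 287 members (49.1%) and had 798 CPM in P60 and 321 in P758.

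Summed over all animals, Fcgbp had 13996 CPM in gated wells and 861 CPM in the other basal wells. Igfbp3 had 1640 against 84.4 CPM, and Il1r2 had 414 against 67.5 CPM. In 468 spinous wells, the differentiating cells above, Fcgbp had 828 CPM, near its level in the other basal wells. Igfbp3 had 347 CPM there (exact 95% Poisson interval 311 to 385, counting error only). Smoc2 had 38.1 CPM, Thbs2 8.01, Slco2a1 5.01 and Il1r2 3.01 CPM. Spinous wells were kept wells with at least 5 keratin counts and at least as many of Krt1 and Krt10 as of Krt5 and Krt14. The exclusions of the basal wells were not applied to them. The gate genes thus had different reach beyond the basal wells. Igfbp3 was counted in 259 members, Smoc2 in 366, Il1r2 in 233, Slco2a1 in 327 and Thbs2 in 226.

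At the threshold the classes lay close together. The lowest gate share among members was 0.303%, and the highest among other basal wells with at least 3 gate counts was 0.291%. A further 40 other basal wells reached 0.3% with fewer than 3 counts, 33 members had exactly 3 gate counts and 39 other basal wells had 2. The median gate share of the members was 1.15%, and the highest was 8.30%.

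**Figure D1:**
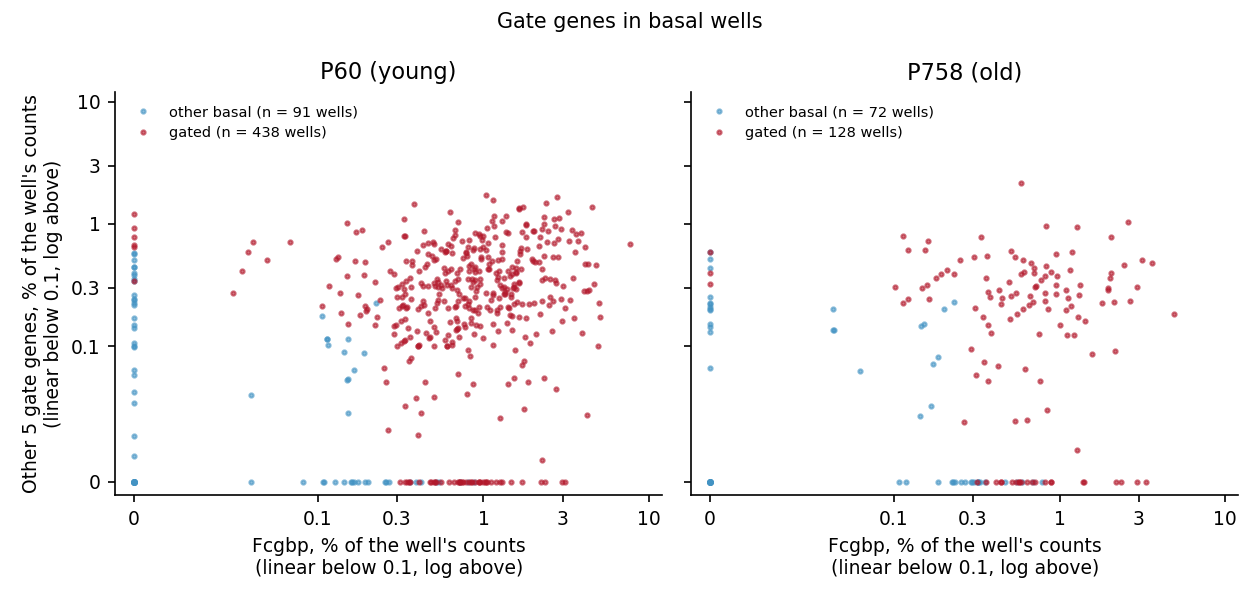
Share of each basal well's counts in Fcgbp (x axis, %) and in the other 5 gate genes together (y axis, %), each point a well of P60 or P758, red for gated and blue for other basal wells; both axes are linear below 0.1 and logarithmic above. Most members lie to the right of 0.3% Fcgbp, and many of them have a share of 0 in the other 5 genes.

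The first comparison asked whether the share of gated wells among basal wells differed with age. It was 100% in P57 (2 of 2 wells), 44.4% in P59 (4 of 9) and 82.8% in P60 (438 of 529), and 36.4% in P662 (4 of 11), 81.8% in P722 (9 of 11) and 64.0% in P758 (128 of 200). The ages overlapped. The mean was 60.7% ± 22.9 (SD, n = 3) in old and 75.7% ± 28.4 (SD, n = 3) in young animals, a difference of -15.0 percentage points (two-sided exact permutation test, p = 0.5, the smallest possible being 0.1). The direction was not stable: without Fcgbp in the gate it was 14.9 points higher in old animals (p = 0.6 by the same exact test), and thinned to 500 counts per well it was 38.4 points higher (p = 0.3 by that exact test). These turns include shares of very few wells. After thinning, 0 of 1 well was gated in P57 and in P59, 1 of 4 in P662 and 3 of 3 in P722. Without Fcgbp it was 0 of 2 in P57, 1 of 9 in P59, 1 of 11 in P662 and 7 of 11 in P722.

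Between the deeply covered animals the shares were 82.8% (exact 95% binomial interval 79.3 to 85.9) in P60 and 64.0% (56.9 to 70.6) in P758. These intervals cover counting error only, and 1 animal stands for each age. The gap remained in direction when wells were thinned to 500 counts, at 73.6% in P60 and 63.8% in P758, and with at least 1000 counts per well, at 89.3% and 84.0%. Plates of P60 ranged from 74.7% to 88.8%, and those of P758 from 57.9% to 69.5%. Gated wells were 44.6% of all kept wells in P60 and 20.4% in P758.

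**Figure D2:**
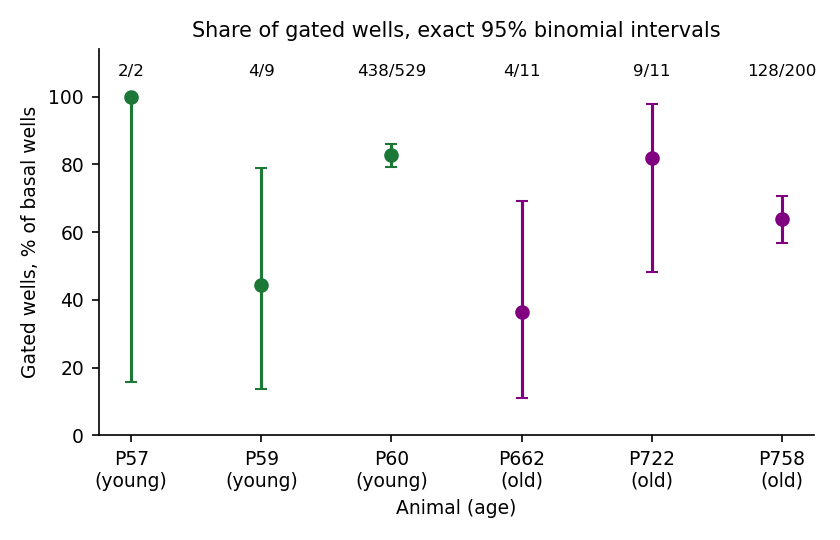
Gated wells as a percentage of basal wells in each animal (y axis), with exact 95% binomial intervals and the numbers of gated and basal wells above each point; green is young and purple is old. The 3 young animals lie between 44.4% and 100% and the 3 old ones between 36.4% and 81.8%.

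Next, gated wells were compared with the other basal wells of the same animals, on genes that the rule did not use. Gated wells were higher in Krt15, a keratin found in basal cells and the bulge, Lamb3, a chain of laminin-332 that anchors hemidesmosomes, and Gja1, the gap junction protein connexin 43. They were also higher in Tnxb and Htra1 and lower in Apoe, Aldh3a1 and Akr1c18. Counts were summed per animal and class in P59, P60, P662 and P758 and tested in edgeR with the animal as a block, P57 and P722 having fewer than 3 other basal wells. Of 348 genes tested outside the rule, 47 were called at a Benjamini-Hochberg adjusted p under 0.05 (13.5%), 10 higher (2.87%) and 37 lower (10.6%), and 7 of the higher and 12 of the lower ones had the same direction in all 4 animals and at least 50 CPM. Gated wells summed to 1157 counts in P59 and 1414 in P662, and other basal wells to 1588 and 2390. For all but the most abundant of these genes, the direction in P59 and P662 therefore rests on very few counts.

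Krt15 had 22472 CPM in the gated wells of P59, 22300 in P60, 16973 in P662 and 12148 in P758. In the other basal wells it had 4408, 11781, 7950 and 5333 CPM in the same order, so that every gated value lay above every other value. The log2 difference was 0.96 ± 0.20 (SE; edgeR adjusted p = 4.66e-05). Within members of at least 1000 counts, Krt15's share of counts rose with the well's total (Spearman 0.44 in P60 and 0.22 in P758). Gated wells were also deeper than other basal wells, and the part of depth in the difference was not tested. Tnxb, an extracellular matrix glycoprotein, had 2593, 1238, 2122 and 1506 CPM in gated and 630, 349, 418 and 657 CPM in other basal wells, again without overlap. Its log2 difference was 1.40 ± 0.31 (SE; edgeR adjusted p = 0.000167).

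Gja1 had 2593, 855, 1414 and 922 CPM in gated and 630, 325, 418 and 637 CPM in other basal wells. Gated wells exceeded them by 0.88 ± 0.28 on the log2 scale (SE; edgeR adjusted p = 0.0171). Klf5, a transcription factor of proliferating epithelia, had a log2 difference of 0.93 ± 0.30 (SE), and its groups did not overlap either. Lamb3 (0.84 ± 0.29, SE), Htra1 (1.01 ± 0.31, SE) and Serpinb2 (1.31 ± 0.31, SE) were higher in gated wells of each animal while the values of different animals overlapped. In gated wells 1 count is worth 864 CPM in P59 and 707 CPM in P662. Htra1 in P59 (864 against 630 CPM) and Klf5 in P662 (707 against 418 CPM) thus stood on 1 gated count each, and show no direction there. Htra1 is a secreted serine protease that cleaves growth factor binding proteins, and Serpinb2 is a plasminogen activator inhibitor.

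Akr1c18, a steroid-metabolizing aldo-keto reductase, was nearly absent from gated wells. It had 1 count in 1 of 585 gated wells and 355 counts in 15 of 177 other basal wells. Per total count it was 3166-fold higher in the other basal wells, with an exact 95% interval of 565 to 125411 for counting error only. The 355 counts came from 9 wells of P60, 3 of P758, 2 of P662 and 1 of P59, and 85 of them from 1 well. These 15 wells had 0.692% of their counts in sebaceous gland markers, against 0.0223% in the 162 other basal wells without Akr1c18 and 0.0134% in gated wells, and 46603 CPM of Apoe, against 14227 and 10020 CPM. The class of other basal wells thus held wells that carried sebaceous markers, and their part in the remaining differences was not tested by itself.

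Apoe, an apolipoprotein, had 14693 CPM in the gated wells of P59, 9966 in P60, 8487 in P662 and 10177 in P758. The other basal wells had 15743, 23805, 18829 and 12636 CPM. The log2 difference was -0.97 ± 0.20 (SE; edgeR adjusted p = 2.79e-05), and the groups overlapped across animals. The gene for the aldehyde dehydrogenase Aldh3a1 was lower in gated wells, at -1.75 ± 0.28 on the log2 scale (SE; edgeR adjusted p = 3.74e-08), with 301 against 1136 CPM in P60 and 307 against 637 CPM in P758. Nfib, a transcription factor, had -1.05 ± 0.28 (SE), and the actin-binding protein Pls3 had -1.24 ± 0.34 (SE). The adhesion receptor Adgrl2 had -1.60 ± 0.34 (SE). Lgals7, Ptms, Hadha, Rpl8 and mt-Cytb were also lower, with log2 differences from -0.58 for Lgals7 to -0.99 for mt-Cytb.

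Upper hair follicle markers took 0.422% of counts in other basal and 0.176% in gated wells. When wells with at least 1% of counts in upper hair follicle or sebaceous markers were left out (11 gated and 17 other basal wells, 8 of them among the 15 with Akr1c18), 22 of 270 genes outside the rule were called. Krt15 (0.94 ± 0.23, SE), Tnxb (1.27 ± 0.34), Gja1 (1.22 ± 0.34), Serpinb2 (1.11 ± 0.34), Nfib (-1.02 ± 0.29), Ptms (-0.99 ± 0.29) and mt-Cytb (-1.01 ± 0.30) were still called. Apoe was at -0.45 ± 0.24 (SE; edgeR adjusted p = 0.255) and was no longer called, and Hadha was at -0.30 ± 0.32 (SE; edgeR adjusted p = 0.665). Lgals7 and Rpl8, at -0.45 and -0.71, were not called either (edgeR adjusted p = 0.27 and 0.166). Lamb3 (0.91 ± 0.33, SE), Htra1 (0.91 ± 0.37) and Klf5 (0.79 ± 0.36) kept about their size without passing the test (edgeR adjusted p = 0.056, 0.117 and 0.171). Akr1c18, Aldh3a1, Adgrl2 and Pls3 no longer passed the filter on low counts. Aldh3a1 and Lrig1 belong to the upper hair follicle markers by which wells were left out, so this fit gives no independent check of them.

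**Figure D3:**
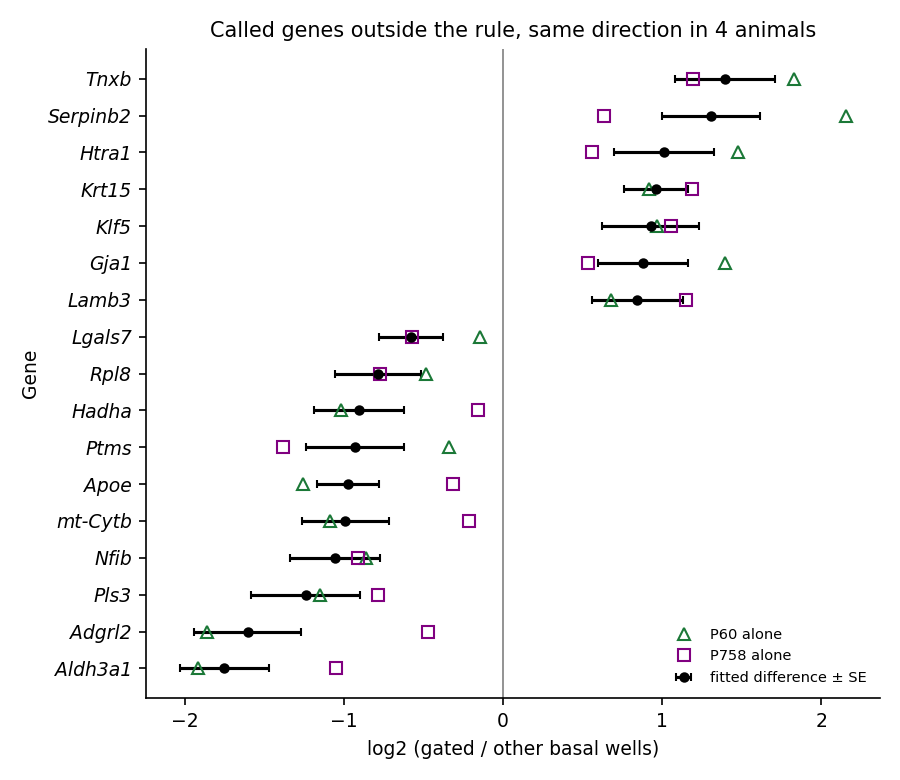
Log2 difference between gated and other basal wells (x axis) for 17 called genes outside the rule with the same direction in 4 animals; black points are the fitted difference with its SE, green triangles P60 alone and purple squares P758 alone. Tnxb, at 1.40, is the topmost and Aldh3a1, at -1.75, the lowest; Akr1c18, with 1 count in gated wells, is left out of the plot.

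Among the lists of basal genes, of 14 basal keratin and hemidesmosome genes, 11 were tested outside the rule, 9 lay higher in gated wells and 2 were called higher (Krt15 and Lamb3), while 2.87% of all genes tested were. Their median log2 difference was 0.32, against -0.11 over all 348 genes, of which 143 lay higher. Col17a1, a hemidesmosome collagen, had 0.36 ± 0.21 (SE; edgeR adjusted p = 0.241), and Itga6, an integrin chain of the same structure, 0.52 ± 0.25 (SE; edgeR adjusted p = 0.15). Of 12 desmosome and adherens junction genes tested 0 were called in either direction, and their median was 0.07. Of 3 Notch genes tested Hey1, a target of the pathway, was called lower (-1.21 ± 0.24, SE), and Notch1 and Jag2 were not called. Of 3 upper hair follicle markers tested outside the rule 2 were called lower, Aldh3a1 and Lrig1, which restrains growth factor receptors (-1.16 ± 0.26, SE), and Lgr6 was at 0.07 ± 0.29 (SE). Over all 348 genes 37 (10.6%) were called lower, and lists of 3 tested genes are too short to set against that share.

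The partners of the gate genes could hardly be tested. Of 15 genes of the insulin-like growth factor system 1 passed the filter on low counts (Htra1), and of 18 interleukin-1 genes and 13 genes of prostaglandin handling 0 did. Of 22 matricellular genes 1 was tested outside the rule, Thbs1, with 0.82 ± 0.32 (SE; edgeR adjusted p = 0.0701). Of 6 mitochondrially encoded genes tested, a group picked after their values were seen, 5 were called lower, against 10.6% of all genes tested, and the median was -0.98. With wells of at least 1000 counts in both classes all 6 still lay lower, with a median of -0.48, and 0 were called by edgeR. Against only the other basal wells with under 0.1% gate share and at least 1000 counts, 3 of the 6 lay lower. Their median there was -0.015, and 0 were called.

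These calls rested on P60 and P758 together, and DESeq2 called 15 of the 47 genes. Without P60 only 7 genes outside the rule passed the filter and 1 was called, and without P758 6 passed and 1 was called. With P59 and P662, which had 4 gated wells each, left out, 317 of 4174 genes were called, 145 higher and 172 lower, among them 30 of the 47. On the nuclease plate, which came from P758 and entered no test, 33 of 60 basal wells were gated (55.0%, exact 95% interval 41.6 to 67.9). There Fcgbp had 13831 CPM in gated wells. Of the 10 genes called higher 7 lay the same way on that plate, as did 24 of the 37 called lower. Over all 348 genes 48.3% lay higher and 51.4% lower in gated wells there. Of the named genes 5 of 7 higher and 4 of 12 lower ones lay the same way. Htra1, at 419 against 550 CPM (10 and 5 counts), and Serpinb2, at 754 against 990 CPM (18 and 9 counts), lay the other way. So did Apoe, at 5784 CPM in gated and 4729 CPM in other basal wells, and Akr1c18 had 0 counts in both. The other basal wells of that plate summed to 9093 counts, so 1 count is worth 110 CPM there. Many of these directions, either way, thus rest on few counts. Krt15 was nearly level there, at 10142 and 9678 CPM. Of 52 kept wells of the Sca-1-negative plate only 8 had enough keratin counts to be classed. Of these 2 were basal before and 0 after exclusions, so that plate gave no share.

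The second comparison asked whether translation within the gated wells differed between old and young animals. Between P59 and P60 on the young side and P662, P722 and P758 on the old side, 0 of 27 genes outside the rule were called by edgeR (0.00%), and 0 had an unadjusted p under 0.05. DESeq2 also called 0. Only genes counted in wells as few as those of P59 and P662 passed the filter, so the comparison covered the most abundant genes and said nothing of the others. Krt15 had 22472 and 22300 CPM in young P59 and P60, and 16973, 27419 and 12148 CPM in old P662, P722 and P758, an overlap of the ages. Its log2 difference, old over young, was -0.36 ± 0.29 (SE; edgeR adjusted p = 0.997).

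The other genes with the smallest p were Plec, a linker of keratin to hemidesmosomes, at 0.52 ± 0.38 (SE), Dsp, the desmosomal plaque protein, at 0.34 ± 0.33, the class I molecule H2-K1 at -0.40 ± 0.41 and Lamb3 at -0.56 ± 0.57. None of these passed the test, and Plec and Dsp turned to -0.44 and -0.58 without P59. With P59 and P662 left out, so that P60 was the lone young animal, 5230 genes were tested and 4 were called, all higher in old animals. Of these Cstdc5, a stefin-like protease inhibitor, had 29 counts in P758, 26 of them in 1 well, and 1 count in P60. Apc2 and Egln3 had 19 counts each in P758 and 8 and 13 in P60, and Myh6 had 16 counts in P758 and 0 in P60. All 4 had 0 counts in P722, so the calls set P758 against P60. These 4 were singled out after their values were seen.

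How the 6 gate genes varied among the members is a description of genes that chose them, and selection on their sum lowers the correlations between them. Over 326 gated wells of P60 and 68 of P758 with at least 1000 counts, the Spearman correlation of Igfbp3 with Il1r2 was 0.38 and 0.40. That of Smoc2 with Thbs2 was 0.30 and 0.28, whereas Igfbp3 with Thbs2 gave -0.11 and -0.18. Fcgbp had a correlation of 0.15 and 0.05 with the summed share of the other 5 genes. Its correlation with the well's total count was 0.34 and 0.38. These are descriptions over wells that share libraries and differ in depth, and weak values in sparse counts are not findings.

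Genes outside the rule were ranked by the lower of their Spearman correlations in P60 and P758 with the gate share, over 365 and 81 basal wells. Of 4003 genes ranked, Tnxb stood first (0.39 and 0.39), then Htra1 (0.39 and 0.49), and Krt15 (0.35 and 0.41) was also among the 8 highest. Itm2b, Wls, Gpc1 and Sdc4 had lower values between 0.31 and 0.33. Wls is needed for Wnt secretion, and Gpc1 and Sdc4 are heparan sulfate proteoglycans of the cell surface. Against the share of the 5 gate genes other than Fcgbp, within members, the order was different: Krt15 (0.45 and 0.42), Lama3 (0.37 and 0.47), Sema3c (0.44 and 0.35), Ifngr1, Ctsl, Dsg1a, Col17a1 and Chit1. At the other end stood Aqp3, Ptn, Sostdc1 and Mki67, with Aqp3 at -0.33 and -0.35.

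Since the label names genes that many members lacked, members with at least 1000 counts were described by those 5 genes. In 203 wells the 5 genes passed the gate by themselves, in 61 they made up less than 0.1% of counts, and 130 wells lay between. This division was chosen after the values were seen, so no test is given. Between wells high and low in the 5 genes, 16 of 30 proliferation genes were lower and 8 of 12 basal keratin and hemidesmosome genes were higher in the high wells of all 5 plates of P60 and P758.

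Mki67, a marker of cycling cells, had 78.6, 882 and 442 CPM in the high wells of the P60 plates Young1, Young3 and Young9, and 84.9 and 25.7 CPM in those of the P758 plates Old2 and Old4. In the low wells it had 3287, 3507 and 3956 CPM, and 1827 and 866 CPM. Each plate's low wells thus lay above its high wells, although Young3's high value exceeded Old4's low value. On the P758 plates few wells carried this. In the low wells of Old2, proliferation genes took 2.50, 2.53 and 2.51% of counts in the highest and 0.585% or less in the others. On Old4 the highest low well had 1.81% and the next 0.789%. Aspm, a spindle pole protein, had 81.6 CPM in high and 928 CPM in low wells, and the spindle checkpoint gene Cdc20 had 47.4 and 510 CPM. The DNA topoisomerase Top2a had 480 and 2906 CPM. Of the 30 proliferation genes 0 were higher on all 5 plates, and their median log2 difference was -2.32. Over all 2538 genes 8.87% were lower on all 5 plates and 11.0% higher, and the median was 0.01.

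The contrast in proliferation genes was also counted at equal depth, in the wells classed as high, low or between on their full counts. Depth could thus still enter the classes, and its part was not tested. After each well was thinned to 1000 counts, 8.87% of the high wells had a count of Mki67, Top2a, Cenpf or Aspm (exact 95% interval 5.34 to 13.7). The share was 23.1% (16.1 to 31.3) in the wells between and 39.3% (27.1 to 52.7) in the low wells. Without thinning it was 16.3%, 28.5% and 42.6%. The median total was 2974 counts in high and 2226 in low wells. These intervals cover counting error only, and wells of 1 plate are not replicates.

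Higher in the wells high in the 5 genes was Krt15, with 27288, 27969 and 28006 CPM on the P60 plates and 18517 and 13800 CPM on the P758 plates, against 16076, 17063, 8003, 3528 and 8752 CPM in the low wells of the same plates. Krt15 also rose with the total count of the members, and the part of depth was not tested. Col17a1 had 11577 against 7282 CPM, and Lama3, another chain of laminin-332, had 1685 against 760 CPM. Of the 12 basal keratin and hemidesmosome genes 0 were lower on all 5 plates, and their median was 0.70. Chit1, a chitinase, had 490 against 80.4 CPM, and the lysosomal protease Ctsl had 397 against 40.2 CPM. Sema3d, a secreted guidance protein, had 628 against 173 CPM, and Ngfr, a neurotrophin receptor, had 147 against 28.1 CPM. The water and glycerol channel Aqp3 went the other way, at 21.1 against 522 CPM, as did Sostdc1, an inhibitor of BMP and Wnt signals, at 46.1 against 458 CPM.

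**Figure D4:**
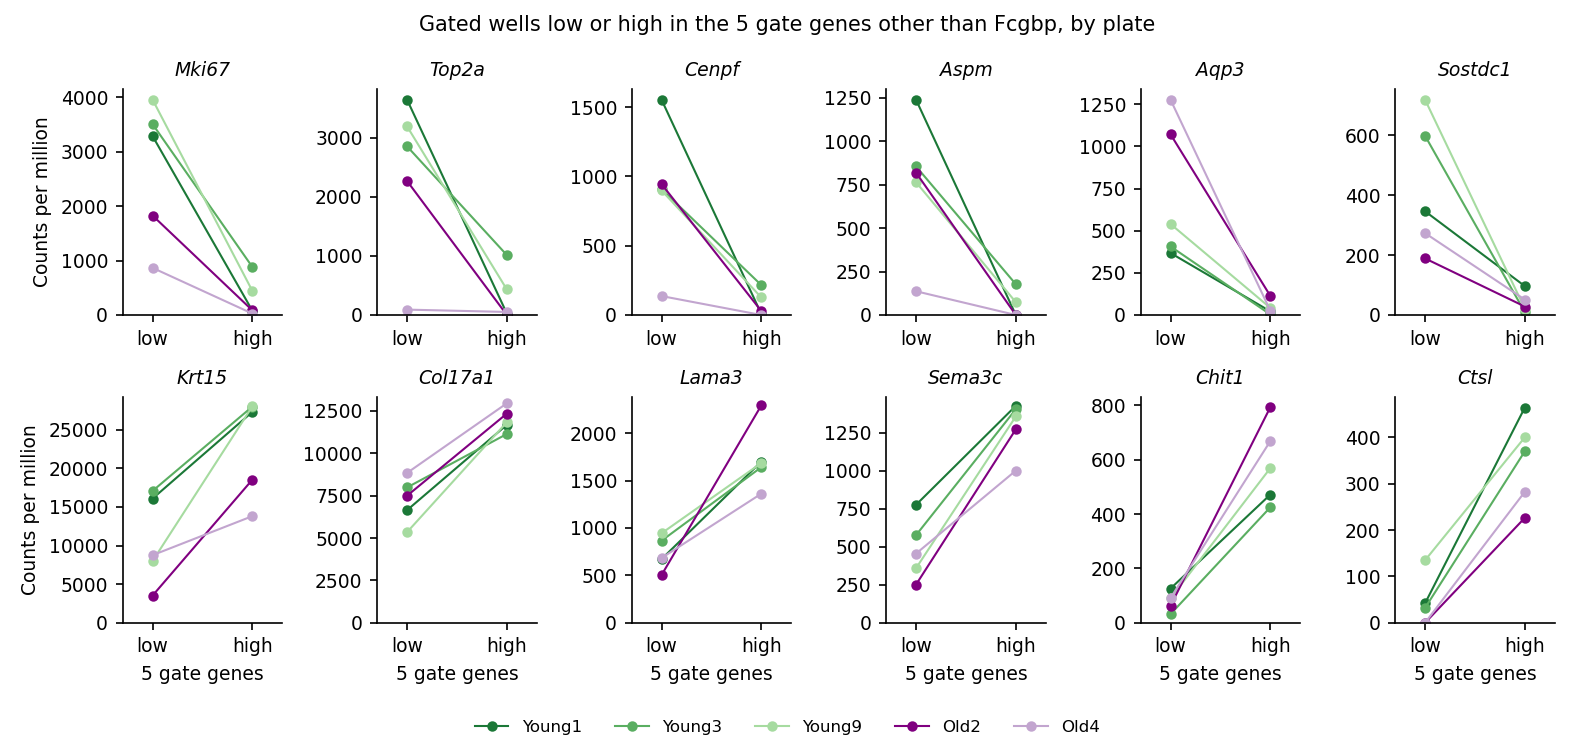
CPM of 12 genes outside the rule (y axes, from 0) in gated wells low (under 0.1%) or high in the 5 gate genes other than Fcgbp (x axis), each line a plate, green for the P60 plates and purple for the P758 plates. Mki67, Top2a, Cenpf, Aspm, Aqp3 and Sostdc1 are lower and Krt15, Col17a1, Lama3, Sema3c, Chit1 and Ctsl higher in the high wells of all 5 plates.

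With Fcgbp taken out of the gate and all other basal wells on the other side, the same fit in P60, P722 and P758 called 124 of 2813 genes (4.41%), 23 higher and 101 lower. This gate, and the genes named here, were chosen after the values of largely the same wells were seen. The fit is therefore a description and no separate support for the division above. Mki67 then had a log2 difference of -2.68 ± 0.33 (SE) and Aspm of -3.19 ± 0.36 (SE), while Krt15 had 0.98 ± 0.46 (SE) and Chit1 1.88 ± 0.30 (SE). With Fcgbp in the gate Mki67 was called higher in gated wells (0.98 ± 0.31, SE; edgeR adjusted p = 0.0136), with 1507 against 584 CPM in P60 and 936 against 517 CPM in P758, and 0 counts in the gated wells of P59 and P662. Mki67 was counted in 90 of 585 gated and 22 of 177 other basal wells, with up to 193 and 21 counts in 1 well. These summed counts thus weigh few deep wells heavily. The direction of Mki67 in the summed counts was opposite under the 2 gates. Of the 47 genes called with the full gate 6 were called again without Fcgbp, and 44 of the 46 tested kept their direction.

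Counts of other cell types were low in the members. Endothelial markers had 21 counts in all 585 wells, from 7 of 10 genes, melanocyte markers 57 counts from 3 of 9 and Merkel cell markers 3 counts from 2 of 10. Of their defining genes, Pecam1, Dct, Pmel and Krt20 had 0 counts. T cell markers made up 0.0208% and fibroblast markers 0.0208% of members' counts. Langerhans and myeloid markers made up 0.0568%, and 214 of the 277 Cd74 counts lay in 1 well. Among the low wells of Young9 these markers reached 2.05% of counts, against at most 0.0775% in the low wells of the other 4 plates. Upper hair follicle markers made up 0.131% of counts in the wells high in the 5 genes and 0.266% in the low ones, and were higher in the low wells of each of the 5 plates. The part of these markers in the differences between high and low wells was not tested.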

How the data were processed

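Per the labels' protocols, epidermal cells were freed with trypsin, sorted live and singly into 384-well plates, and made into small-RNA libraries after nuclease digestion. The authors deposited whole-number counts of reads per gene and well for 22416 genes in 12 plates. Per the submitters' processing notes, fastp, Bowtie2, STAR, UMI-tools and featureCounts were used with the build GRCm38.p6, with versions and settings not given in the sources used here. The counting may have split or dropped reads of near-identical genes.

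Wells were classed by the rule in the report, and counts were summed per animal and class. The main tests were edgeR 4.0.16 quasi-likelihood fits in R 4.3.3 (robust, TMM factors, filterByExpr, Benjamini-Hochberg at 0.05), with the animal as a block between classes, since both classes came from the same animals. A minimum of 5 wells per class left 2 animals between classes and 1 young animal between ages, so the planned minimum of 3 wells was used. The biological coefficient of variation was 0.145 between classes and 0.259 between ages. DESeq2 1.42.0 and limma 3.58.1 (voom), other filters, depth minimums and gates, and leaving out each animal were alternatives. Thinning, 1 random draw per well, used numpy 2.4.6, and exact intervals (95%) and permutation tests used scipy 1.17.1. Counts were simulated only for the 362 and 30 genes that passed the filter, with the same mean profile in every animal. On these, the test between classes recovered 77.8% of 2-fold changes, and that between ages 28.6% of 7. With no change set, the tests called 0 of 362 and 1 of 30 genes. No doublet caller was run.

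Genes were named by a rule: called, the same direction in every animal and at least 50 CPM, up to 12 each way, and for age the 5 smallest p-values of the fit where fewer than 5 were called; some genes that meet it are not reported here. The members, lists and thresholds were chosen with earlier results of these data known. The rule's 27 genes and Cxcl14 were never read as results. Coding lengths were not used here, so apart from shares of raw gate counts, levels of different genes were not compared. Wells of the Sca-1-negative plate were not analysed by age. P-values of the fits rest on a spread between animals that edgeR partly shares across genes. Under 10 gated wells came from 4 of the animals. Between classes P60 and P758 gave nearly all counts, so small p-values there do not show replication over many animals.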

Additional observations from a re-analysis of the deposited data

Results flagged for a closer look

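On the nuclease test plate, which lay outside the comparisons between ages and classes, 55.0% of basal wells (33 of 60) met the same gate. This signal is reported because it came from data that the tests did not use. The plate holds cells of the postnatal day of P758, digested with different ribonucleases. The plates Old2 and Old4 of that day had 57.9% and 69.5% gated wells.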

How the results depend on the processing

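The old minus young difference in the share of gated wells, -15.0 points, turned to 4.57 with at least 500 counts per well, 38.4 after thinning to 500 counts, 13.6 with at least 5 gate counts and 14.9 without Fcgbp in the gate. Leaving out each animal gave -30.7 to -2.84. With at least 500 counts per well, and after thinning to 500, P57 and P59 had 1 basal well each, and that of P59 was not gated. The cause of these turns was not tested.

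Between classes, the 47 calls became 15 with DESeq2, 216 with no filter, 229 at a mean of 20 CPM, 13 with no replicate block for the animal, 227 at 1000 counts per well and 218 against other basal wells with both under 0.1% gate share and at least 1000 counts. Alternatives chosen after seeing the data gave 124 without Fcgbp, 317 in P60 and P758 only and 22 without follicle and gland wells. Leaving out each animal gave 1 to 118 calls: 117 without P59, 118 without P662 and 1 without P60 or P758, where under 10 genes were tested. Of the 47 genes, 15 were called again by DESeq2, 46 by limma-voom, 16 with no filter, 22 at 20 CPM, 13 with no replicate block and 19 at 1000 counts, and all kept their direction there. With the gate genes removed before library sizes were set, the split was 25 higher and 30 lower. Against the other basal wells (21 in P60 and 3 in P758) with under 0.1% gate share and at least 1000 counts, 12 were called again and 34 kept their direction, and among the named genes mt-Cytb, Ptms and Lgals7 turned to 0.24, 0.44 and 0.38. The cause was not tested.

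Within gated wells, the 0 calls between ages became 24 with no filter, 1 at 20 CPM, 4 at 500 counts per well and 4 without P59 and P662, and 0 to 6 when each animal was left out. Plec turned to -0.13 at 500 counts, -0.44 without P59 and -0.014 without P59 and P662, and Dsp to -0.40, -0.58 and -0.24. Leaving out each animal moved Plec between -0.44 and 3.71, Dsp between -0.58 and 1.10 and Krt15 between -1.35 and 0.32, the upper ends without P60. Depth limits the age comparison, in which P59, P662 and P722 gave 1157 to 4413 counts each from gated wells and 2 young animals entered.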
